A study of Mus musculus with 4 samples.

Results

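Endothelial surface and junction genes were followed in RNA from sorted cells of the mouse genital ridge, the embryonic gonad primordium, with and without the heterochromatin protein HP1γ. The set holds 34 listed genes whose products sit at the surface, the junctions or the signalling apparatus of endothelial cells. Each gene was represented by the probe with the highest mean signal over the 4 arrays. Of the 34 genes, 33 had a probe and 31 were tested, among 18327 genes with a probe and 12117 tested genes in the series. Exoc3l2 had no named probe, so it has no level or difference here and enters only the promoter counts. Both genotypes carried a Blimp1-mVenus transgene, and mVenus-positive cells were sorted at embryonic day 11.5. One group was wild type for Cbx3, the gene of HP1γ, and the other was HP1γ-/- from a gene-trap allele, obtained by backcrossing heterozygotes. Each of the 2 pools per genotype combined RNA of 5 to 6 embryos, with 500 to 3500 sorted cells per embryo, so a pool gives no value for a single embryo. A pool was hybridised to its own single-colour array. The p-values measure the spread between pools, and 2 pools per genotype limit the precision of every value.

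Endothelial cells line blood and lymphatic vessels. They hold to one another through adherens and tight junctions, and they carry receptors for guidance cues, lipids and peptides that shape a growing vascular bed. Mucin-like glycoproteins and scavenger receptors on their surface govern contact with blood cells and the uptake of plasma components. In the genital ridge, vessels from the mesonephros enter the gonad while germ cells settle there. Blimp1 (Prdm1) marks germ cells but is also expressed in other embryonic cell types.

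The labels name the sorted cells primordial germ cells, and the arrays held markers of more than that cell type. Of 15 germ cell genes with a probe, 6 were well above background on all 4 arrays, and the median level of the 14 tested was -0.52 and -1.62 in wild-type replicates 1 and 2, against 1.20 and -5.37 in null replicates 1 and 2. The other 8 tested missed background on at least 1 array, so low values among them are bounds. Null replicate 2 was thus the lowest in germ cell genes and null replicate 1 the highest, and endothelial differences that move by over 1.5 times when either null pool is left out are also given without it. A level is the log2 signal of a probe minus log2 of the 75th percentile of its own array, so that 0 is that percentile. Cbx3 read 5.89 and 5.72 in the wild-type pools, against -1.24 and -2.78 in the null pools, the order the labels give, with a difference of -7.82 (SE 0.55, limma adjusted p = 0.099). Prdm1, whose promoter names the transgene, read 1.24 and 1.27 in the wild-type pools, against 1.48 and 0.65 in the null pools. The 75th percentile itself was 188 and 219 intensity units in the wild-type pools, against 125 and 291 in null replicates 1 and 2. Null replicate 1 was thus the dimmest array and null replicate 2 the brightest. Per array, 53.3% to 63.3% of spots were well above background.

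Endothelial genes were bright in the sorted cells and lower without HP1γ. All 31 tested genes were well above background on all 4 arrays, and each had a lower mean in the null pools than in wild type. The differences ran from -1.27 to -0.29 on the log2 scale with a median of -0.68, or 1.60-fold lower, while the median over all tested genes was -0.02 and their middle range from the lower to the upper quartile was -0.21 to 0.19. In 29 of the 31 genes both null pools lay below both wild-type pools. The same was true of 23% of all 22440 tested probes, of 24.8% of tested probes with a mean level above 0, and of 20.7% of tested genes represented by 1 probe. Of the 30 endothelial genes with a mean level above 0, 28 showed this order. A lower mean in the null pools alone was met by 53.1% of all tested genes.

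**Figure D1:**
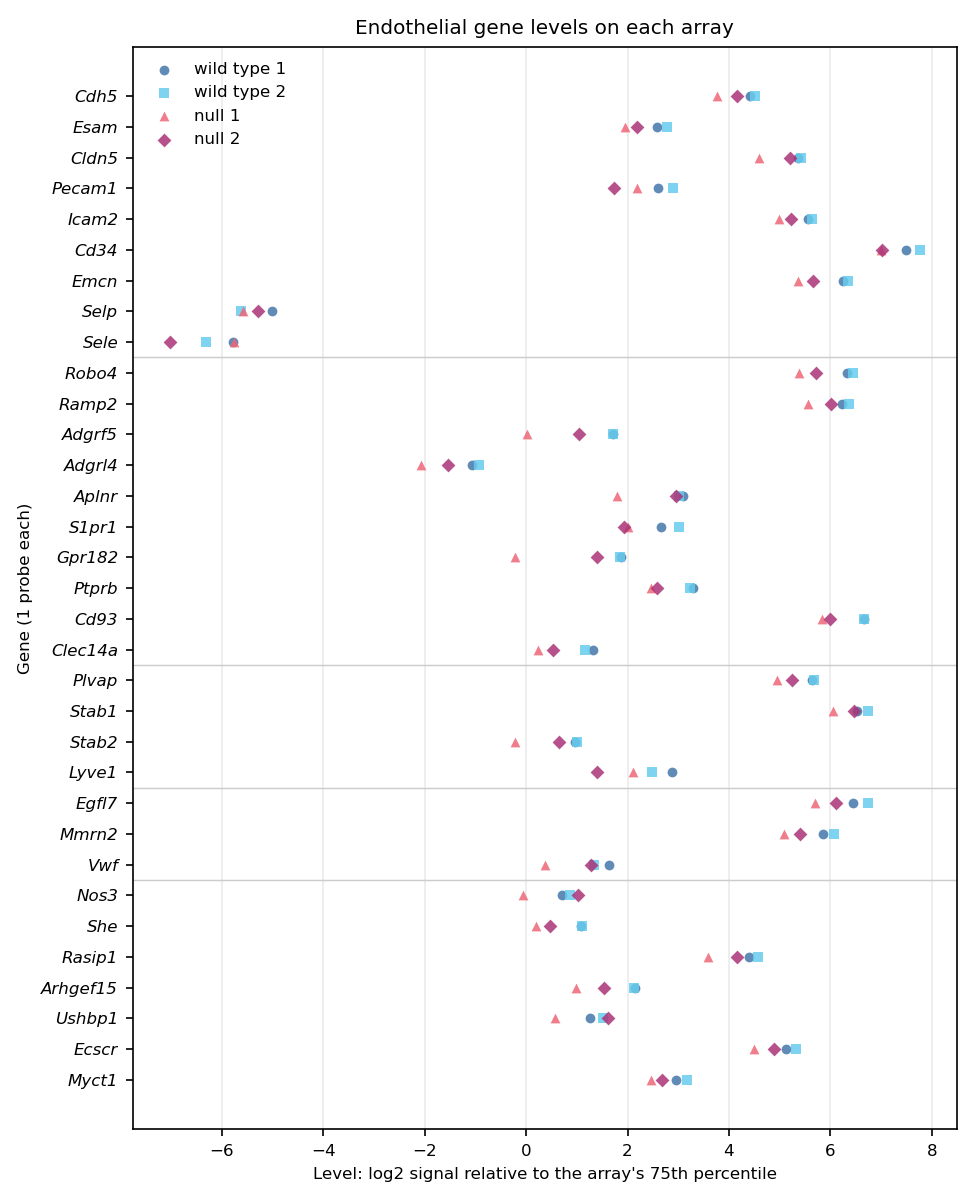
Level of each of the 33 endothelial genes with a probe (vertical axis, separated by lines into the role groups of the text) on the 4 arrays (horizontal axis, log2 signal relative to the 75th percentile of the array). Both null pools lie left of both wild-type pools for 29 genes, while Selp and Sele lie far left without order; levels of different genes come from different probes and are not to be ranked.

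No endothelial gene passed the threshold over all probes. Limma's adjusted p-values ran from 0.52 to 0.93 for the 31 genes, and the comparison called 0.00891% of all tested probes, 2 in number. At an unadjusted p under 0.05, 15 of the 31 genes were lower, against 3.29% of all tested probes. Among these genes the wild-type replicates differed by a median of 0.15 and the null replicates by 0.40, close to the 0.16 and 0.42 over all tested probes. In pooled RNA of a sort, fewer endothelial cells and less RNA of these genes per cell cannot be told apart.

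**Figure D2:**
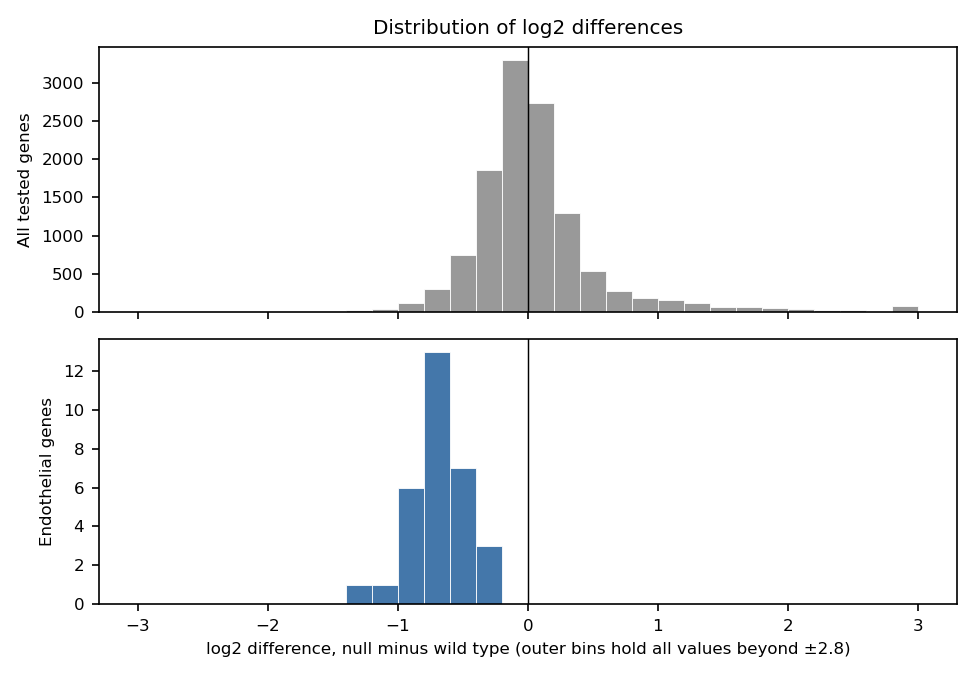
Number of genes (vertical axes) by log2 difference, null minus wild type (horizontal axis, bins of 0.2), for all 12117 tested genes above and the 31 endothelial genes below. The endothelial genes occupy bins below 0 alone, from -1.27 to -0.29, while all genes centre on -0.02.

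Genes of cell junctions and adhesion were lower in the null pools in each of the 7 tested cases. Cdh5 encodes VE-cadherin, the adherens junction cadherin of endothelium. Its level was 4.42 and 4.52 in the wild-type pools, against 3.77 and 4.16 in the null pools. The null pools thus lay below wild type with a gap of 0.26, and the log2 difference was -0.51 with SE 0.23 (limma adjusted p = 0.73), or -0.31 without null replicate 1. Cldn5, the tight junction claudin known from the blood-brain barrier, read 5.37 and 5.42 in the wild-type pools, against 4.59 and 5.20 in the null pools, a difference of -0.50 with SE 0.28. Most of that difference came from null replicate 1, without which it was -0.19. Leaving out null replicate 2 gave -0.81. Esam, an immunoglobulin-type adhesion molecule of tight junctions, read 2.59 and 2.77 in the wild-type pools, against 1.95 and 2.19 in the null pools, with no overlap.

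Pecam1, or CD31, is an adhesion molecule of endothelial contacts that germ cells also express. It read 2.60 and 2.89 in the wild-type pools, but 2.19 in null replicate 1 against 1.74 in null replicate 2, a difference of -0.78 with SE 0.26 (limma adjusted p = 0.63). Null replicate 2, where germ cell genes were lowest, was also the lowest array for Pecam1. How far germ cell RNA enters its level was not tested. Icam2, which binds leukocyte integrins, averaged 5.59 ± 0.05 in wild type, against 5.10 ± 0.16 in the null pools (SD, n = 2 each), a difference of -0.49.

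Emcn encodes endomucin, a sialomucin of venous and capillary endothelium. It read 6.25 and 6.35 in the wild-type pools, against 5.37 and 5.66 in the null pools. The gap between the genotypes was 0.59, wider than the distance between the replicates of either, and the difference was -0.78 with SE 0.21 (limma adjusted p = 0.55). Cd34, another sialomucin that blood progenitors share, read 7.50 and 7.76 in the wild-type pools, against 6.99 and 7.02 in the null pools. Its difference of -0.62 with SE 0.21 stayed at -0.60 when null replicate 1 was left out and at -0.63 for null replicate 2.

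Both selectins were below detection. Selp and Sele, which capture leukocytes on activated endothelium, were well above background on none of the 4 arrays. Selp had signals of -5.01 and -5.62 in the wild-type pools, against -5.59 and -5.28 in the null pools, and its second probe was likewise below background. Sele had -5.79 and -6.32 in the wild-type pools, against -5.76 and -7.02 in the null pools. These values are bounds, so no fold is given.

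Surface receptors, 10 in number, had a median difference of -0.83, the lowest of the role groups, and in all 10 the genotypes did not overlap. Robo4, a Roundabout receptor expressed mainly in endothelium, read 6.33 and 6.44 in the wild-type pools, against 5.38 and 5.72 in the null pools. The difference was -0.83 with SE 0.22, 1.78-fold (limma adjusted p = 0.54). Clec14a, a C-type lectin receptor, had the smallest p-value of the set. It read 1.32 and 1.17 in the wild-type pools, against 0.24 and 0.52 in the null pools, a difference of -0.86 with SE 0.22 (adjusted p = 0.52). Its relative Cd93 read 6.66 and 6.67 in the wild-type pools, against 5.84 and 5.99 in the null pools, so that the replicates lay far closer together than the genotypes, at a difference of -0.75 with SE 0.20.

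Ptprb, the receptor phosphatase VE-PTP that acts on VE-cadherin and the Tie2 receptor, read 3.29 and 3.23 in the wild-type pools, against 2.46 and 2.59 in the null pools. It differed by -0.74 with SE 0.19, the smallest error of the set. S1pr1, the sphingosine 1-phosphate receptor that stabilises vessels, read 2.67 and 3.02 in the wild-type pools, against 2.00 and 1.93 in the null pools. Here both null pools lay at nearly one level, and the difference was -0.88 with SE 0.22 (limma adjusted p = 0.53).

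Several G protein-coupled receptors depended on which null pool was read. Gpr182, an endothelial receptor that binds chemokines, read 1.87 and 1.86 in the wild-type pools, but -0.22 in null replicate 1 against 1.40 in null replicate 2. Its difference of -1.27 with SE 0.58 was the largest of the set, ranging from -0.46 to -2.09 according to which null pool was left out (null replicate 1 for the former). Adgrf5, an adhesion receptor, read 1.71 and 1.71 in the wild-type pools, against 0.01 and 1.04 in the null pools, and its difference of -1.19 became -0.67 without null replicate 1. The adhesion receptor gene Adgrl4 had levels of -0.99 ± 0.09 and -1.81 ± 0.37 (SD, n = 2 each), a difference of -0.82, which was -0.33 after normexp background correction.

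Aplnr, the apelin receptor of venous and sprouting endothelium, read 3.09 and 3.02 in the wild-type pools, but 1.79 in null replicate 1 against 2.96 in null replicate 2. The gap between genotypes was only 0.07, and the difference of -0.68 with SE 0.43 was -0.10 when null replicate 1 was left out and -1.26 for null replicate 2. Ramp2, the partner that makes Calcrl an adrenomedullin receptor, averaged 6.30 ± 0.10 in wild type, against 5.79 ± 0.33 in the null pools. Its difference was -0.51, and -0.28 without null replicate 1.

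**Figure D3:**
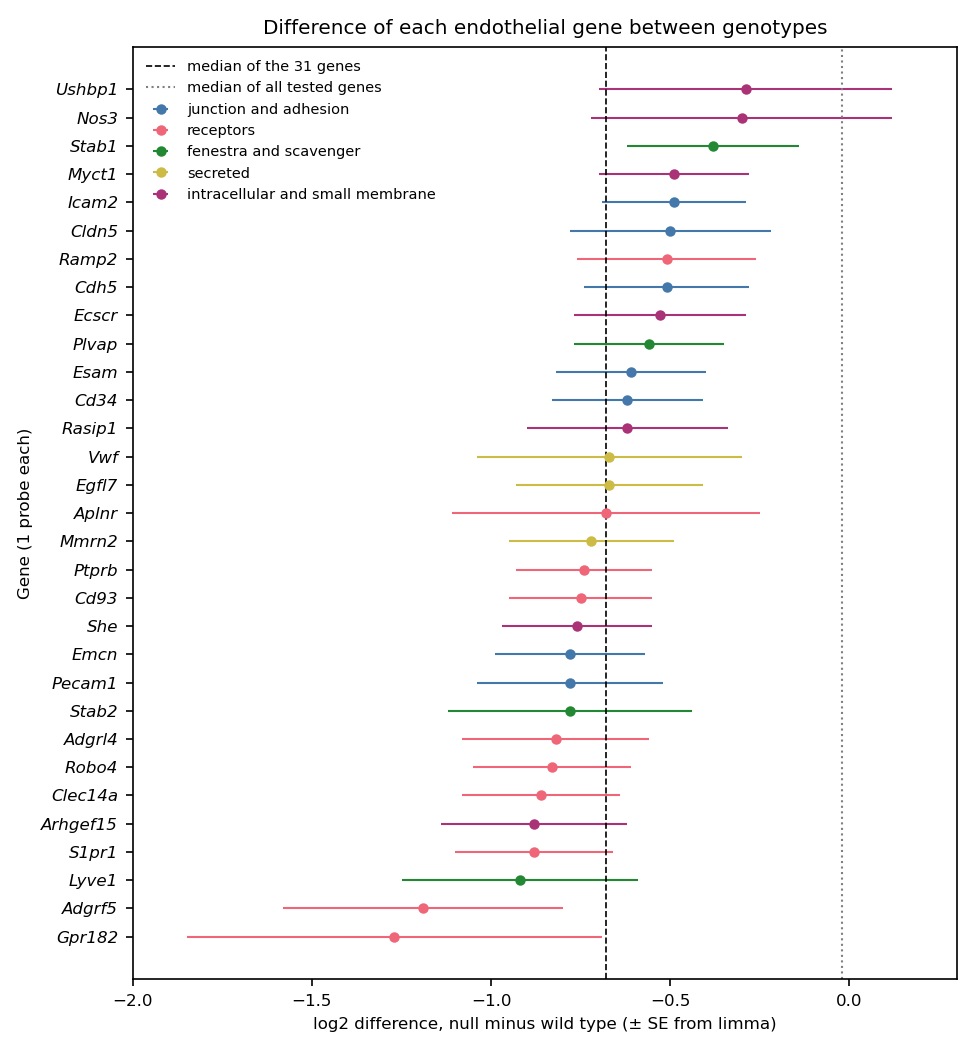
Log2 difference, null minus wild type, of each of the 31 tested endothelial genes (points, coloured by role group) with the standard error from limma (bars). All points lie below 0, the dashed line marks the median of -0.68 and the dotted line the median of all tested genes of -0.02; the bars of Nos3 and Ushbp1 reach past 0.

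Genes of fenestral diaphragms and scavenger uptake were lower in 4 of 4 cases. Plvap, the protein of endothelial diaphragms, read 5.64 and 5.68 in the wild-type pools, against 4.94 and 5.25 in the null pools, a difference of -0.56 with SE 0.21. Stab1 and Stab2 encode the scavenger receptors stabilin-1 and stabilin-2, of which stabilin-1 is shared with macrophages. Stab1 had levels of 6.64 ± 0.15 and 6.26 ± 0.29 (SD, n = 2 each), a difference of -0.38 with a gap of 0.07 between the genotypes. That difference was -0.18 when null replicate 1 was left out and -0.58 for null replicate 2. Stab2 had levels of 0.99 ± 0.04 and 0.21 ± 0.60, a difference of -0.78, which ranged from -0.35 (null replicate 1 left out) to -1.20 (null replicate 2 left out).

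Lyve1, the hyaluronan receptor of lymphatic endothelium and of some macrophages, read 2.88 and 2.48 in the wild-type pools, but 2.11 in null replicate 1 against 1.40 in null replicate 2. In contrast to most of the set its lowest value was in null replicate 2, and the difference was -0.92 with SE 0.33 (limma adjusted p = 0.65). Leaving out null replicate 1 gave -1.28, and leaving out null replicate 2 gave -0.57. Its second probe read 0.22 and 0.18 in the wild-type pools, against -0.30 and -0.66 in the null pools, the same order of arrays between genotypes and between the null pools.

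The 3 secreted products were lower as well. Egfl7, an endothelial matrix protein, read 6.44 and 6.74 in the wild-type pools, against 5.70 and 6.12 in the null pools, a difference of -0.67 with SE 0.26. Mmrn2, a matrix ligand of Clec14a and Cd93, read 5.86 and 6.07 in the wild-type pools, against 5.08 and 5.41 in the null pools. The ligand thus differed by -0.72 with SE 0.23, beside -0.86 and -0.75 for its receptors. Vwf, the platelet-binding clotting protein that megakaryocytes also make, had levels of 1.48 ± 0.22 and 0.82 ± 0.64 (SD, n = 2 each). Its difference was -0.67 with SE 0.37 and, when null replicate 1 or 2 was left out, -0.21 or -1.12.

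Intracellular signalling genes and small membrane proteins held both genes whose genotypes overlapped. Nos3, the endothelial nitric oxide synthase, read 0.71 and 0.86 in the wild-type pools, but -0.06 in null replicate 1 against 1.03 in null replicate 2. Ushbp1, which encodes a binding partner of harmonin, read 1.26 and 1.51 in the wild-type pools, but 0.56 in null replicate 1 against 1.62 in null replicate 2. In both genes null replicate 2 was the highest array, and without null replicate 1 the differences turned from -0.30 to 0.25 for Nos3 and from -0.29 to 0.24 for Ushbp1. Without null replicate 2 they were -0.85 and -0.83, and Ushbp1 was -0.17 without wild-type replicate 2. Nos3 was -0.19 after normexp background correction.

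The other members of this group did not overlap. She, an SH2-domain adaptor, read 1.09 and 1.11 in the wild-type pools, against 0.19 and 0.48 in the null pools, a difference of -0.76 with SE 0.21. Arhgef15, a guanine nucleotide exchange factor, read 2.15 and 2.13 in the wild-type pools, against 0.98 and 1.53 in the null pools, a difference of -0.88 with SE 0.26. For both genes the wild-type replicates lay within 0.02 of each other. Rasip1, a GTPase effector needed for vessel lumens, had levels of 4.49 ± 0.12 and 3.87 ± 0.41 (SD, n = 2 each), a difference of -0.62, and of -0.33 without null replicate 1. Ecscr, a small membrane glycoprotein, had 5.23 ± 0.15 and 4.69 ± 0.28, a difference of -0.53, and of -0.34 without null replicate 1. Myct1, a small membrane protein of endothelium, had 3.07 ± 0.14 and 2.57 ± 0.15, a difference of -0.49.

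Further probes bore on 9 of these genes. Of the 8 that were tested, 8 had a lower mean in the null pools and 5 did not overlap between genotypes. The probes of Cd93 gave -0.75 and -1.01 on the log2 scale. The second probe of Clec14a was well above background on 3 of the 4 arrays, so its -0.95 rests in part on a signal below background. Aplnr, whose brighter probe hardly separated the genotypes, differed by -1.02 with a gap of 0.49 by its dimmer probe (-0.25 and -0.67 in wild type, then -1.80 and -1.16 in the null pools). The second probe of Cdh5 was less clear, reading 0.88 and 0.99 in the wild-type pools, but 0.00 in null replicate 1 against 1.26 in null replicate 2. Second probes of Stab1 and Vwf overlapped too, with differences of -0.30 and -0.74, and that of Ptprb differed by -0.52 without overlap.

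The genes shared a pattern across the pools. Null replicate 1 was the lowest array for 28 of the 31 genes, and null replicate 2 for the other 3, which were Pecam1, Lyve1 and S1pr1. By the 75th percentile null replicate 1 was also the dimmest array, at 125 intensity units, and null replicate 2 the brightest, at 291. The part of array brightness in this order was not tested. The median level of the set was 3.09 and 3.17 in the wild-type pools, against 2.46 and 2.68 in the null pools. Gene by gene, null replicate 1 lay a median of 0.78 and 0.92 below wild-type replicates 1 and 2, and null replicate 2 a median of 0.40 and 0.58 below them. Leaving out null replicate 1 accordingly gave a median difference of -0.47, and leaving out null replicate 2 gave -0.84. Even without null replicate 1, 29 of the 31 genes were lower in the remaining null pool, and without null replicate 2 all 31 were.

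Set against the median of the set, most genes differed alike. The differences of the 31 genes had an SD of 0.22, and 26 of them lay between -1 and -0.4. Gpr182 and Adgrf5 lay 0.59 and 0.51 below the set's median, while Ushbp1, Nos3 and Stab1 lay 0.39, 0.38 and 0.30 above it. In null replicate 1 Gpr182 stood at -2.68 relative to the set's median level on that array, against -1.22 and -1.30 in wild type and with -1.28 in null replicate 2, so its departure came from 1 pool. A scaling of each array by a single factor leaves these offsets as they are.

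Promoter sequences were at hand from RefSeq (GRCm38.p6) for 17 of the 34 genes, in 20 windows of 250 bases before to 50 after an annotated start. ETS factors, a family that includes the endothelial regulators Erg and Fli1, bind sites with a GGAA core. The word AGGAAG, or the same word with C in first place, CGGAAG, was read on either strand. It occurred in 16 of the 20 windows (80%), against 46.5% of all 32851 windows. By gene it occurred in 15 of the 17, some of which had more than 1 window, and no share over all genes was counted. The word AGATAA of the GATA factors, the word AACAAT of the SOX factors and TATAAA as a TATA box each occurred in 2 of the 20 windows (10%), against 11.2%, 10.7% and 13.6% of all windows. Such matches are descriptions of sequence and not shown to be bound. The windows of Robo4 (chr9:37401722-37402021, plus strand), Emcn (chr3:137340828-137341127, plus strand), Clec14a (chr12:58269209-58269508, minus strand) and Sele (chr1:164047984-164048283, plus strand) are shown 5′ to 3′ with the ETS words in capitals; the first 3 had differences among the largest relative to their error, and Sele was below background.
Robo4: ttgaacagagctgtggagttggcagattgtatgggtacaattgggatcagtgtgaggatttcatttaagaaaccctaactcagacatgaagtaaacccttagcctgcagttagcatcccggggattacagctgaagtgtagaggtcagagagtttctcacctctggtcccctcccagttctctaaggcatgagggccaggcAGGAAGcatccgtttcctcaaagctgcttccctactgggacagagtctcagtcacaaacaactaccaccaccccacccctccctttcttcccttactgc
Emcn: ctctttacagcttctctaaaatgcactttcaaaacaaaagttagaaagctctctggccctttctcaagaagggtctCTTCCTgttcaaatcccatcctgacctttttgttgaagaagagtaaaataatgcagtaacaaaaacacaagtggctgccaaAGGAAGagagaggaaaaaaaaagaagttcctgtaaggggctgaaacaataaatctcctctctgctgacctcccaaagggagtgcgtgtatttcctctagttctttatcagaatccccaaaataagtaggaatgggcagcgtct
Clec14a: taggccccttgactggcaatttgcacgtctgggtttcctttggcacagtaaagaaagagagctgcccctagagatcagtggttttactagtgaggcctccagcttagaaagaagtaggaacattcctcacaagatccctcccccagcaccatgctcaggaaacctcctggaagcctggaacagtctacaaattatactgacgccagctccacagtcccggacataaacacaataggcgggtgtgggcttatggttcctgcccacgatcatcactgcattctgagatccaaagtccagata
Sele: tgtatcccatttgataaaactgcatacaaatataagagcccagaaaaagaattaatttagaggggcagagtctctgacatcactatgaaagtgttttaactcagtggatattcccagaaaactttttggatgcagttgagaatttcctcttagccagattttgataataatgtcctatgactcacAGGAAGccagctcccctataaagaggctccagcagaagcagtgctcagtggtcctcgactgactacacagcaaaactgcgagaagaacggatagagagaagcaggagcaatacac
Robo4 holds 1 match, 49 bases upstream of its start, and Emcn holds 2, at 174 and 93 bases upstream. Clec14a holds none in this window, and Sele holds 1 at 65 bases upstream. How these words relate to the level or the difference of a gene was not tested.

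Other endothelial genes gave the same direction in part. Of 11 endothelial receptor genes, 11 were lower, 9 without overlap, with a median of -0.60, and limma called none (4 had an unadjusted p under 0.05). Over all tested genes, 20.7% were lower without overlap. At a limma unadjusted p under 0.05, 3.29% of all tested probes were lower. Kdr, the main VEGF receptor, read 5.19 and 5.26 in the wild-type pools, against 4.25 and 4.75 in the null pools, and Flt1, its decoy relative, 4.71 and 4.83 against 4.10 and 4.13. Acvrl1, a BMP receptor gene, differed by -0.76 with SE 0.22. Of 17 endothelial transcription factor genes, 15 were lower, 14 of them without overlap, with a median of -0.56. Limma again called none (7 had an unadjusted p under 0.05). The 2 higher were Nr2f2, by 0.19 with overlap, and Etv2, by 0.62 without. Etv2 was well above background on 2 arrays only, the null pools, and so was tested through the group where it is high. Elk3 differed by -0.66 with SE 0.19 and the lymphatic regulator Prox1 by -1.21 with SE 0.36 (limma adjusted p = 0.58 for each). Prox1 was dim, though well above background on all 4 arrays. It read -1.94 and -2.42 in the wild-type pools, against -3.01 and -3.77 in the null pools.

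Arterial and Notch pathway genes differed less on average. Of 11 tested, 7 were lower and 4 higher, 3 and 2 of them without overlap, with a median of -0.05. Over all tested genes, 53.1% had a lower mean and 20.7% were lower without overlap. Among genes well above background on all arrays, 15.9% were higher without overlap. The arterial connexin genes Gja4 and Gja5 read 3.17 and 3.54, and 0.96 and 1.14, in wild type. In the null pools they read 3.39 and 3.29, and 1.75 and 1.23, so neither was lower in both null pools. Hey1, an arterial Notch target, read 3.57 and 3.92 in the wild-type pools, against 4.29 and 3.48 in the null pools, whereas the Notch ligand gene Jag2 was lower by its mean, at -0.79 with SE 0.21 (adjusted p = 0.54), as was Notch1 at -0.38. Scaled to the spiked-in probes, which put the median of all tested probes at -0.61, the arterial list had a median of -0.60 with 11 of 11 lower, and the surface and junction genes a median of -1.22. Whether the lists differ was not tested.

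Markers of other cell types were read on the same arrays. Summed over each list's genes with a probe, with 1 as the signal at the array's 75th percentile, the endothelial set came to 1040 and 1160 in wild type, against 645 and 794 in the null pools. Macrophage and leukocyte genes, from cells that can share Stab1, Lyve1 and Cd93 with endothelium, summed to 262 and 302 in wild type, against 269 and 238 in the null pools. Of these 13 tested genes 9 were lower, 2 without overlap, against 53.1% and 20.7% of all tested genes. Their median was -0.08, and all were well above background on every array. With the spiked-in scaling all 13 were lower, at a median of -0.63. Mrc1 read 4.34 and 4.75 in the wild-type pools, against 4.40 and 3.89 in the null pools, Adgre1 4.99 and 5.31 against 4.96 and 4.58, and Tyrobp differed by -0.18. Null replicate 2 was the lowest pool for 7 of the 13 genes, as it was for Lyve1, and the highest for 3. Their part in the values of Lyve1 was not tested.

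Of the gonadal somatic genes, 5 were well above background on all 4 arrays, and these 5 had higher means without HP1γ, 4 of them without overlap, with a median of 2.14. Among all genes so detected, 15.9% were higher without overlap. The 12 genes with a probe summed to 4.84 and 2.81 in the wild-type pools, against 31.1 and 17.4 in the null pools, of which Krt8 and Krt18 made up 1.79 and 1.23, against 27.0 and 8.56. The keratin genes Krt8 and Krt18 differed by 3.96 and 3.22 (limma adjusted p = 0.24 and 0.44), while Gata4, Lhx9 and Nr5a1 missed the detection filter in either genotype. Stromal and pericyte genes summed to 89.8 and 78.2 in the wild-type pools, against 65.3 and 150 in the null pools, and 9 of 11 were higher by their means, with none of those free of overlap, while both lower genes, Abcc9 and Acta2, were free of it. Lower without overlap were 20.7% of all tested genes. Null replicate 1 was the lowest array for 10 of the 11 stromal genes, and null replicate 2 the highest for 8. Abcc9 differed by -0.86, and Acta2, the brightest, by -0.21. Postn differed by 2.22 with SE 1.38, a value that came from 1 pool. It read -1.67 and -2.78 in the wild-type pools, but 1.94 in null replicate 1 against -1.96 in null replicate 2. With the spiked-in scaling the 6 tested gonadal genes had a median of 1.57, against 2.12 with the 75th percentile. The sixth, Wnt4, was well above background on 2 arrays only, the null pools, and so was tested through the group where it is high. The stromal median turned to -0.10 with the spiked-in scaling. The part of these cells in the endothelial values was not tested.

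Germ cell genes summed to 55.5 and 20.5 in the wild-type pools, but 215 in null replicate 1 against 6.29 in null replicate 2, with 10 of 14 lower by their means and none lower without overlap. For 8 of the 14 the difference rests in part on signals below background. Of the 6 well above background on all 4 arrays, 3 had higher means, with a median difference of 0.25. The median difference of all 14, -0.16, turned to 0.33 after normexp background correction. Dppa5a, the brightest, read 5.37 and 3.66 in the wild-type pools, but 7.45 in null replicate 1 against -0.84 in null replicate 2, and Ifitm3 differed by 0.56. Dazl was well above background on 3 of the 4 arrays and read -0.45 and -3.02 in wild type, then -2.15 and a signal below background in the null pools. The null pool with the lowest endothelial levels was thus the one with the highest germ cell levels. The endothelial set was lower in null replicate 2, where germ cell genes were at their lowest, than in either wild-type pool, by the medians given above. These orders rest on single pools, and the part of germ cells in the endothelial values was not tested.

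Blood cell genes were mixed in direction. Erythroid genes summed to 3.34 and 3.91 in the wild-type pools, against 2.75 and 4.43 in the null pools. Of 5 tested 3 were lower, with a median of -0.03 and differences of -0.34 and -0.15 for Hba-a1 and Epor, and Gata1 and Klf1 were well above background on no array. Megakaryocyte and platelet genes, from cells that also make Vwf and Selp, summed to 123 and 138 in wild type, against 103 and 74.1 in the null pools. With the spiked-in scaling the erythroid median was -0.57 and the platelet median -0.02, against 0.52 for the latter with the 75th percentile. The platelet sum is almost all Pf4, which differed by -0.60, while 4 of the 6 tested genes had higher means, among them Gp1bb, which was well above background on 3 arrays, by 0.61, and Itga2b was not tested. Mesonephric epithelial genes summed to 5.88 in null replicate 1 against 0.613 to 1.03 on the other arrays. Most of the 5.88 came from Epcam and Cdh1, which read 1.43 and 1.08 there. On that array Lhx1 read -0.80, Gata3 -1.89 and Cdh16 -2.69, the last below its -1.97 in wild-type replicate 1. Pax2 and Pax8 were well above background on no array. Which cells gave the Epcam and Cdh1 signal was not tested. All 4 tested had higher means, Epcam and Cdh1 by 1.77 and 1.70, none without overlap, and 2 of the 4 with the spiked-in scaling.

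**Figure D4:**
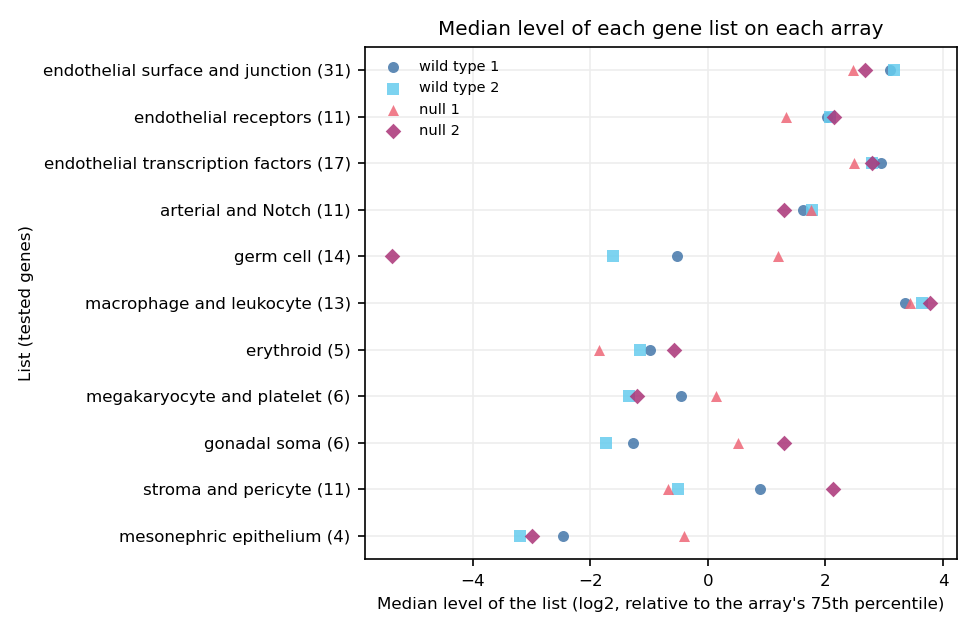
Median level of the tested genes of each list (vertical axis, number of tested genes in brackets) on the 4 arrays (horizontal axis, log2 relative to the 75th percentile of the array). The endothelial surface and junction genes read 3.09, 3.17, 2.46 and 2.68 in wild-type and null replicates 1 and 2, and germ cell genes spread from 1.20 to -5.37.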

How the data were processed

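Per the labels, labelling with Cy3 started from 4 ng of total RNA. Per the file headers, intensity values were extracted by Agilent Feature Extraction 10.7.3.1; the deposited value table holds them rounded, within 0.497%. All 4 arrays lay on 1 slide with 1 scan. From the deposited intensity, levels were taken as log2 after dividing by the 75th percentile of an array's 43379 spots that are not controls; outlier spots were left out and spots of 1 probe averaged. Probes were named by accession through RefSeq GRCm38.p6 (26888 of 41174 probes). The 22440 probes that passed the scanner's background test on both arrays within a genotype were tested, with limma 3.58.1 in R 4.3.3 (two-sided, Benjamini-Hochberg, threshold 0.05, no covariate; 2 residual and 2.43 prior degrees of freedom), and tables were made with Python 3.11.15 and pandas 2.3.3. The script was tested on simulated data. Where a gene had several probes, the highest mean signal chose one. Every gene of the set with a probe was named, and of other lists the 2 smallest p-values and the brightest gene; further genes named from those lists were chosen after their values were seen, as were the printed promoters and motif words. The genes and lists were chosen with earlier results of these data known. Alternatives were 3 further scalings, normexp background correction (on median spot signals, since the mean was not in the files used here), the value table, 2 probe filters, a replicate block, each array left out and the mean over a gene's probes.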

Additional observations from a re-analysis of the deposited data

How the results depend on the processing

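Limma called 2 probes in all. It called 0 of the endothelial genes here and under each of the 12 alternatives that were refitted. Scaling to 7 spiked-in probes gave 144 calls and moved the endothelial median to -1.22, with the median of all probes at -0.61. The distance between these medians was 0.62 in size there and with the 75th percentile. Each of the 2 scalings shifts all probes of an array by 1 value, so this distance could not differ between them. With no filter on dim probes 0 were called (1474 at an unadjusted p under 0.05), with only probes detected on all arrays 1. Without 1 array the calls were 0 in each case (716 to 5602 at an unadjusted p under 0.05) and the endothelial median ran from -0.84 to -0.47. Leaving out 1 array, Nos3 ran from -0.85 to 0.25 and Ushbp1 from -0.83 to 0.24. The values above 0, both without null replicate 1, were 2 of 403 values of single genes under 13 alternatives. The other 401 kept their direction, but many of them could not change it. The 2 probe filters and the replicate block repeat each gene's difference, and the value table is the same data rounded. The mean over probes repeats the value of every gene with 1 probe. The mean over a gene's probes gave no p-value. The count of genes lower without overlap stayed between 26 (quantile normalization and normexp) and 31 (without null replicate 2). Wild-type and null replicates share numbers but no stated origin; deviations of the arrays numbered 1 correlated at 0.07, and a replicate block called 13 probes. The cause of these changes was not tested, nor was that of the arterial and erythroid medians turning to 0.02 and 0.01 with normexp. Signal over background limits Selp, Sele and the second probe of Clec14a, as well as Etv2, Wnt4, Gp1bb, Hba-x and 8 of 14 germ cell genes.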

Other observations

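Chosen after their values were seen, Pecam1, Lyve1 and S1pr1 were the 3 endothelial genes lowest in null replicate 2. Relative to the median level of the endothelial set on each array, Pecam1 stood at -0.48 and -0.28 in the wild-type pools, but -0.27 in null replicate 1 against -0.95 in null replicate 2. Lyve1 stood at -0.21 and -0.69 in the wild-type pools, against -0.35 and -1.28 in the null pools, and S1pr1 at -0.42 and -0.14 against -0.46 and -0.75. The dimmer probe of Cd93 had the same order, at 3.62 and 3.58 in the wild-type pools, but 2.96 in null replicate 1 against 2.22 in null replicate 2, while its brighter probe did not, at 5.84 and 5.99 in the null pools. The endothelial regulators Erg (2.00 and 1.83 in wild type, then 1.44 and 0.35 in the null pools) and Klf2 (4.84 and 4.82, then 4.97 and 3.87) were among the 11 of 17 endothelial transcription factor genes lowest in null replicate 2, against 1 of 11 endothelial receptor genes.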
